A study of Mus musculus with 12 samples.

Results

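Titin, the nebulin family, the myomesins, cardiac myosin-binding protein C and myospryn are described here from the nuclear RNA of adult mouse cardiomyocytes with and without an active form of YAP. The genes were taken by symbol: Ttn, Neb, Nebl, Nrap, Myom1, Myom2, Myom3, Mybpc3 and Cmya5, which is 9 of the 46983 symbols in the count table. All 9 were found as single rows and all 9 passed the filter on low counts.

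These proteins are the molecular scaffolds of the sarcomere, the repeating contractile unit of muscle. Titin runs from the Z-disc to the M-band and acts as a spring and as a template for the thick filament. Nebulin and its relatives bind actin along the thin filament or at its Z-disc end, the myomesins tie titin and neighbouring thick filaments together in the M-band, and cardiac myosin-binding protein C sits on the thick filament and regulates its motors.

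There were 2 control libraries (Myh6-MCM mice) and 2 YAP5SA libraries (Yap5SA+/tg; Myh6-MCM mice). Adults of both groups carried Myh6-MCM, a Cre that tamoxifen activates and that the Myh6 promoter, active in heart muscle cells, drives, and both received tamoxifen. YAP5SA is a YAP protein in which inhibitory serines are changed to alanine, so that Hippo kinases restrain it less. Nuclei were enriched on beads through PCM1, RNA libraries were made after removal of ribosomal RNA, and the study asks how YAP5SA alters the cardiomyocyte's transcripts. Whether replicates are separate animals is not in the labels, and every p-value here therefore rests on the spread between libraries, which may be technical.

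Total counts ran from 7850661 to 15012122. The control libraries stood apart from each other for these genes. Over the 9 genes, the log2 level in control replicate 2 minus that in control replicate 1 had a median of 1.01, against -0.04 over all 17715 tested genes, while YAP5SA replicate 2 minus YAP5SA replicate 1 had a median of 0.01. All defining cardiomyocyte markers checked (Myh6, Tnnt2, Tnni3, Actc1, Ryr2, Pln, Myl2, Nppa and Atp2a2) were detected in every library. Their summed level was 14251 and 21351 CPM (counts on TMM-scaled library totals) in control, against 9497 and 9950.1 CPM in YAP5SA. In such bulk nuclei, fewer cardiomyocyte nuclei and less RNA per nucleus cannot be told apart. The difference between the control libraries was not particular to the 9 genes. Listed Z-disc genes summed to 9726 CPM in control replicate 1 and 15373 CPM in control replicate 2. Sums of endothelial, macrophage and fibroblast markers were instead higher in control replicate 1.

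All 9 genes had a negative log2 fold change (YAP5SA minus control), from -2.19 for Myom3 to -0.80 for Myom1, and a median of -1.12, against -0.06 over all tested genes. Every gene was lower in both YAP5SA libraries than in either control library, an order that 28.3% of all tested genes also showed. Only Neb passed the threshold of 0.05 on the adjusted p of edgeR's quasi-likelihood test, so that 1 of 9 fell and 0 rose, against 0.999% of all tested genes called lower and 3.12% called higher. At an unadjusted p under 0.05, 6 of 9 were lower and 0 higher (10.9% and 12.7% of all tested genes), and DESeq2, run on all 30546 genes with a count, called 5 lower and 0 higher (1.73% and 3.50% of those genes). DESeq2 on the 17715 filtered genes, added after the data were seen, called the same 5 (3.36% of all lower and 5.84% higher). The number called changed when a library was left out, a fit in which 1 group has a single library. Without YAP5SA replicate 1 or 2, the members' median log2 fold change was -1.12 each time. Without control replicate 1, 9 members were called lower, when 17.4% of all tested genes were called lower and 18.8% higher. Without control replicate 2, 5 members were called lower, beside 18.6% lower and 19.7% higher over all tested genes, and the members' median log2 fold change was -0.57. Without YAP5SA replicate 1, 0 members were called, beside 0.0266% of all tested genes lower and 0.362% higher, and without YAP5SA replicate 2, 0 members, beside 0% and 0.143%.

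**Figure D1:**
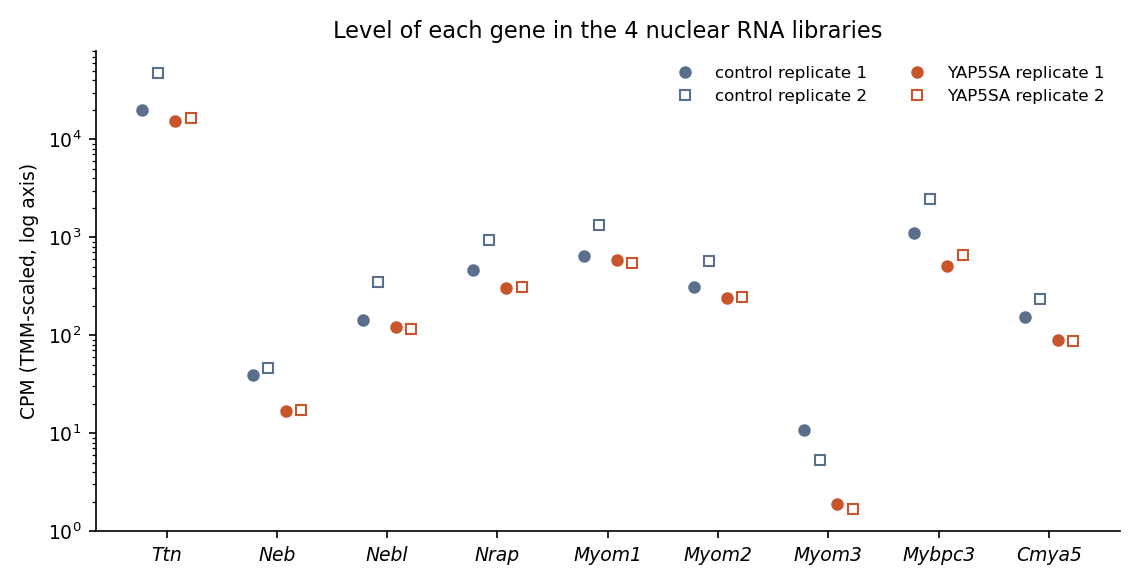
Level of each gene in each library, in CPM on a log axis. Filled circles are replicate 1 and open squares replicate 2, and the YAP5SA points lie below both control points for all 9 genes, by as little as 1.10-fold for Myom1 and as much as 2.80-fold for Myom3 between the nearest libraries.

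The gene models (GENCODE M21, mm10) differ widely in size. Ttn (chromosome 2, 76703980 to 76982547, minus strand) spans 279 kb and its merged exons cover 117 kb in 345 blocks. Neb (chromosome 2, 52136647 to 52378474, minus strand) has 26.6 kb of merged exons and Nebl (chromosome 2, 17343909 to 17731464, minus strand) has 15.2 kb in a gene of 388 kb. Mybpc3 (chromosome 2, 91118144 to 91136516, plus strand) is the most compact, with 4.16 kb of exons in 18.4 kb. Nrap is on chromosome 19 (56320035 to 56390037), Myom1 on chromosome 17 (71002633 to 71126856), Myom2 on chromosome 8 (15057653 to 15133541), Myom3 on chromosome 4 (135759715 to 135815564) and Cmya5 on chromosome 13 (93040713 to 93144724). Some exon bases overlap genes on the other strand: 453 in Ttn, whose partner had 0 counts in every library, 45 in Neb, whose partner had at most 4 counts, and 268 and 108 in Nrap, whose partners Habp2 and Gm17197 had at most 121 and 91 counts.

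Upstream sequence is shown for 3 of these genes because each carries a site for MEF2, a transcription factor family that drives many muscle genes. RefSeq promoter entries (GRCm38.p6) matched 7 of the 9 genes, and Neb and Myom2 were not analysed here. The windows are the 250 bases before the annotated start, 5′ to 3′ on the gene's strand, with the MEF2 site in capitals: chr2:76982548-76982797 (minus strand) for Ttn, chr2:91117894-91118143 (plus strand) for Mybpc3 and chr4:135759465-135759714 (plus strand) for Myom3.
Ttn: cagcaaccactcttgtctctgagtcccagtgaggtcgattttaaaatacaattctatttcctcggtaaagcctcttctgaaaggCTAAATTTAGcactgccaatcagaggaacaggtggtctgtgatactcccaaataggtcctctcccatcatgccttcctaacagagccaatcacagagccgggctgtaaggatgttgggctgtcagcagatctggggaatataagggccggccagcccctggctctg
Mybpc3: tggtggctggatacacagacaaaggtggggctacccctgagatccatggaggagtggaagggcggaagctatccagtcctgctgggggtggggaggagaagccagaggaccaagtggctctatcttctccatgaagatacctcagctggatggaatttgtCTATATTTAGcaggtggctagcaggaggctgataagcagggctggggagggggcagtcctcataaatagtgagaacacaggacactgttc
Myom3: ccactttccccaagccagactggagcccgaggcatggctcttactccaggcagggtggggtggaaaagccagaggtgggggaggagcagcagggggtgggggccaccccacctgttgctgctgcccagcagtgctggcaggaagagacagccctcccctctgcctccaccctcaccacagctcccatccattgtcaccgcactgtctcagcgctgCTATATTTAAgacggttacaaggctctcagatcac
The site begins 166 bases before the start of Ttn, 90 bases before that of Mybpc3 and 35 bases before that of Myom3. The pattern searched reads the same on both strands, so any match is on both. Such a site is in 2.92% of the 32851 promoter windows of this length. It is in 3 of the 10 windows of the 7 genes with an entry (Nebl has several starts). The windows of Myom1 and Nebl lie inside annotated gene models, those of Nebl within Nebl itself and 1 of them wholly in exon, so they are not upstream of the whole gene. The CArG box, bound by SRF, was in 2 of the 10 windows, of Nebl and Myom1 (1.47% of all windows), with no overlap with a MEF2 site. The TEAD core GGAATG, on either strand, was in 1 of the 10, a window of Nebl (12.6% of all windows). The GATA core AGATAA was in 4 of the 10, of Nebl, Myom1 and Cmya5 (9.99%). The E-box CANNTG was in 8 of the 10, with at least 1 for each of the 7 genes (66.2%). The AP-1 core TGACTCA was in 0 of the 10 (4.46%). A match describes letters and shows neither binding nor a cause.

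Titin made up 2.01% of all counts in control replicate 1 and 4.64% in control replicate 2, against 1.53% and 1.71% in the YAP5SA pair. The level of Ttn was 19850.2 and 48026 CPM in control, against 15461 and 16635 CPM in YAP5SA. Control replicate 2 was high and the other 3 libraries lay closer together. Its control mean of 33938 ± 19923 CPM compares with 16048 ± 830.3 CPM for YAP5SA (SD, n = 2). Its log2 fold change of -1.08 (SE 0.730) missed the threshold (edgeR adjusted p = 0.418). Without control replicate 2 it was -0.27, and without control replicate 1 it was -1.57.

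Nebulin, which in skeletal muscle lines the thin filament and sets its length and stability, gave the call. Neb had 437 and 352 counts in control, against 249 and 225 in YAP5SA, which is 39.5 and 46.4 CPM against 16.7 and 17.0 CPM. The replicates lay close together in each group, and control replicate 2 was only 1.18-fold above control replicate 1. Neb fell from 42.9 ± 4.90 to 16.9 ± 0.217 CPM (SD, n = 2), a 2.54-fold decrease (log2 fold change -1.34, SE 0.179, edgeR adjusted p = 0.0316). The call was lost without YAP5SA replicate 1 (adjusted p = 0.260) and without YAP5SA replicate 2 (0.395), while the log2 fold change stayed between -1.45 and -1.19 over the 13 alternatives.

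Nebulette, the nebulin relative of the cardiac Z-disc, is made from Nebl. Counts by symbol pool the 13 annotated transcripts of Nebl, so the values are not those of a single isoform. The level of Nebl was 143 and 346 CPM in control, and 122 and 117 CPM in YAP5SA. Control replicate 2 was 2.42-fold above control replicate 1, as it was for Ttn, and control replicate 1 was 1.17-fold above the nearest YAP5SA library. The log2 fold change of -1.03 (SE 0.417) missed the threshold (edgeR adjusted p = 0.215) and was -0.22 without control replicate 2 and -1.53 without control replicate 1.

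Nrap encodes a nebulin-related anchoring protein of the intercalated disc and of growing myofibrils. It was at 466 and 937 CPM in control and at 305 and 309 CPM in YAP5SA. The YAP5SA libraries nearly coincided and the control libraries differed 2.01-fold. The log2 fold change was -1.19 (SE 0.363, edgeR adjusted p = 0.133). DESeq2 called it (adjusted p = 0.0267), and it was -0.57 without control replicate 2 and -1.60 without control replicate 1.

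Nrap gave most of the nebulin family's counts in every library. It took 71.9% and 70.5% of the summed Neb, Nebl and Nrap counts in control and 68.7% and 69.8% in YAP5SA. Neb took 6.09% in control replicate 1 and from 3.49% to 3.85% in the other libraries, so the groups overlapped. Lasp1, a short relative with nebulin repeats, had a positive log2 fold change of 0.23 (edgeR adjusted p = 0.501).

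The myomesins differed by member. Myom1 encodes myomesin, the main cross-linker of the M-band, and was at 649 and 1336 CPM in control and at 592 and 549.8 CPM in YAP5SA. Control replicate 1 was only 1.10-fold above the nearest YAP5SA library. The log2 fold change was -0.80 (SE 0.382, edgeR adjusted p = 0.278), -0.15 without control replicate 2 and -1.22 without control replicate 1. Myom1 shares 207 bases of exon with Myl12a on the other strand, whose counts were 3053 and 2556 in control and 7479 and 7347 in YAP5SA, and without a stated strand setting reads there cannot be told apart.

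Myom2 encodes M-protein, an M-band component of adult heart and fast skeletal muscle. Its level was 309.7 and 568 CPM in control and 242 and 243 CPM in YAP5SA. Here too control replicate 1 sat near the YAP5SA libraries and control replicate 2 stood above the rest. The log2 fold change was -0.86 (SE 0.319, edgeR adjusted p = 0.189), and -0.32 and -1.22 without control replicate 2 and 1 in turn.

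Myom3, the third myomesin, is known from slow and intermediate skeletal fibres and was the scarcest of the 9 genes. It had 120 and 40 counts in control, against 28 and 22 in YAP5SA, which is 10.8 and 5.27 CPM against 1.88 and 1.67 CPM. Control replicate 1 was the high one here, at 2.06-fold above control replicate 2, the opposite order to the other 8 genes. The log2 fold change of -2.19 (SE 0.449) missed the threshold (edgeR adjusted p = 0.0617), was called by DESeq2 (adjusted p = 0.00459), and was -1.55 without control replicate 1 and -2.57 without control replicate 2. Its share of the summed myomesin counts was 1.12% and 0.276% in control and 0.225% and 0.210% in YAP5SA, while Myom1 took from 66.9% to 70.8% in the 4 libraries.

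Neb, Myom3 and Mybpc2 are also genes of skeletal muscle. Of 13 markers of skeletal fibres, 8 passed the filter on low counts. The summed level of these 8 was 136 and 133 CPM in control and 74.6 and 100.2 CPM in YAP5SA, of which Mybpc2 alone gave 105 and 119 CPM in control and 46.0 and 53.6 CPM in YAP5SA. The 5 fibre markers that did not pass it, Mylpf, Tnnc2, Actn3, Pvalb and Myh4, were at or below 1.72 CPM in every library, with 0 counts of Tnnc2 in both YAP5SA libraries. Tnni2, the fast troponin I gene, was at 6.14 and 3.82 CPM in control and 0.605 and 1.44 CPM in YAP5SA (edgeR adjusted p = 0.0795). Among the skeletal markers 3 rose (Myh1, Myh2 and the calcium channel gene Cacna1s). The 3 that fell were Mybpc2, Ryr1, the skeletal ryanodine receptor gene, and Tnnt3. Over all tested genes, 3.12% were called higher and 0.999% lower. Models on the other strand share 1309 exon bases with Cacna1s, 515 with Myh1, 237 with Myh2, and 864 and 50 with Ryr1. Without a stated strand setting, reads there cannot be told apart. Tnnt3 was at 16.4 and 5.27 CPM in control and 0.403 and 0.379 CPM in YAP5SA, with control replicate 1 high as for Myom3. Its call was lost with limma-voom (adjusted p = 0.0630), and the stricter filter removed both Tnnt3 and Ryr1. Myh2, a fast myosin gene, had 0 counts in both control libraries and was at 9.61 and 19.0 CPM in YAP5SA. Without YAP5SA replicate 1, 2 skeletal markers were higher and 0 lower, and without YAP5SA replicate 2, 1 and 0. The part of skeletal transcripts in the values of Neb and Myom3 was not tested.

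Cardiac myosin-binding protein C had the most negative log2 fold change after Myom3. Its gene Mybpc3 was at 1095 and 2485 CPM in control and at 512 and 666 CPM in YAP5SA. The groups were separated by 1.64-fold between their nearest libraries, and both groups showed a spread, 2.27-fold in control. Its control mean of 1790 ± 983 CPM compares with 589 ± 109.5 CPM for YAP5SA (SD, n = 2), with a log2 fold change of -1.60 (SE 0.452) that missed the threshold (edgeR adjusted p = 0.116). DESeq2 called it (adjusted p = 0.00359), and the value was -0.86 without control replicate 2 and -2.07 without control replicate 1. Of its relatives, Mybpc2, the fast skeletal form, fell (log2 fold change -1.17, SE 0.175, edgeR adjusted p = 0.0369), Mybph had a log2 fold change of 1.53 (adjusted p = 0.0919), and Mybpc1 and Mybphl were too low to test, at up to 0.527 CPM. The call of Mybpc2 was lost with the replicate block (adjusted p = 0.0550), and Mybpc2 shares 192 bases of exon with a gene model on the other strand.

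Myospryn, a large muscle protein that binds desmin and anchors protein kinase A, is made from Cmya5. It was at 153 and 233 CPM in control and 90.0 and 87.2 CPM in YAP5SA. The nearest libraries of the groups were 1.70-fold apart and the control libraries 1.53-fold. The log2 fold change was -1.12 (SE 0.244, edgeR adjusted p = 0.0685), -0.75 without control replicate 2 and -1.39 without control replicate 1, and DESeq2 called it (adjusted p = 0.00981). Models on the other strand cover 2451 and 119 bases of its exons.

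**Figure D2:**
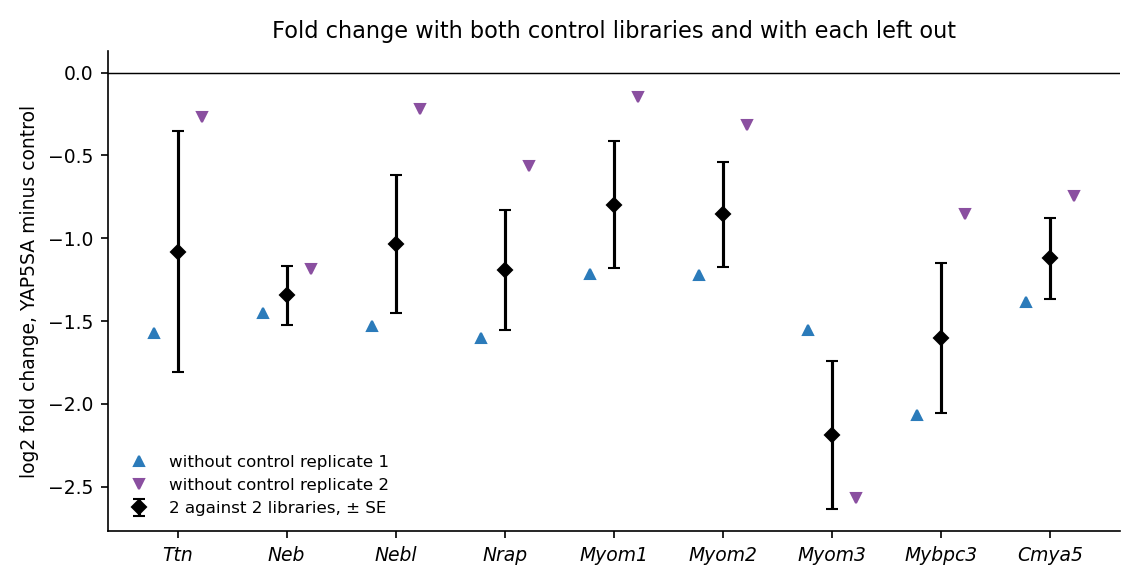
Log2 fold change of each gene, YAP5SA minus control. Diamonds with bars are the estimate and SE from all 4 libraries, and triangles the estimates with each control library left out. Neb has the smallest SE (0.179) and the closest pair of triangles (-1.45 and -1.19), while Ttn has the largest SE (0.730).

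Levels were set against each other per kilobase of merged exons, on the assumption that exonic reads were counted, which is not stated. Mybpc3 stood at 263 and 597 CPM per kb in control and 123 and 160.1 CPM per kb in YAP5SA, and Ttn at 169.9 and 411 in control and 132 and 142 in YAP5SA. Their control ranges overlap, and Mybpc3 was first in 3 libraries and Ttn in YAP5SA replicate 1. Merged exons pool all annotated transcripts, 25 for Ttn and 3 for Mybpc3, and can be longer than any single transcript. The order of Mybpc3 and Ttn could turn with another choice of length, and other lengths were not tried. Nrap (84.6 and 170.1 CPM per kb in control, 55.3 and 56.0 in YAP5SA) and Myom1 (62.1 and 128, and 56.6 and 52.6) came next. Within a library, Nrap was above Myom1 except in YAP5SA replicate 1. Myom2 followed at 35.0 and 64.1 CPM per kb in control and at 27.3 and 27.4 in YAP5SA, below Myom1 in every library.

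Cmya5 and Nebl lay next to each other per length, and their control ranges overlapped. Cmya5 was at 12.9 and 19.6 CPM per kb in control and 7.59 and 7.36 in YAP5SA, and Nebl at 9.37 and 22.7 in control and 8.01 and 7.67 in YAP5SA. Neb (1.49 and 1.75 CPM per kb in control, 0.630 and 0.641 in YAP5SA) and Myom3 (1.80 and 0.873, and 0.312 and 0.276) were last. Their order turned between control replicate 1 and the other 3 libraries.

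**Figure D3:**
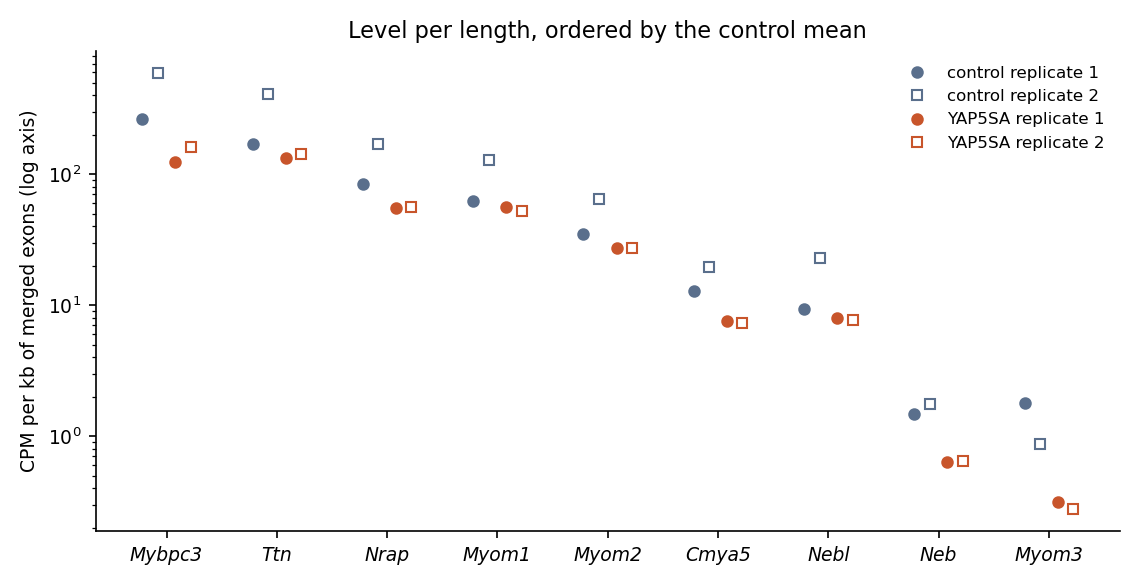
CPM per kilobase of merged exons in each library on a log axis, with genes ordered by the control mean. The levels span from 597 CPM per kb for Mybpc3 in control replicate 2 to 0.276 for Myom3 in YAP5SA replicate 2.

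The profile of each gene over the 4 libraries was compared as a distance between log2 CPM values centred on the gene's own mean. Ttn and Nebl were the closest pair of the 36 (distance 0.129), then Myom1 and Myom2 (0.166), and Nebl and Myom3 the farthest (1.96). The nearest gene was then taken from 12154 other genes with a mean of at least 5 CPM. A profile holds only 4 values, so a small distance among so many genes does not show shared regulation. Neb was nearest to 4930429F24Rik (0.0795). Myom1 was nearest to Ldb3, a Z-disc gene (0.0469 on that scale), Myom3 to Scn4a, the skeletal muscle sodium channel gene (0.136), Mybpc3 to Tfrc, the transferrin receptor gene (0.160), Cmya5 to Dhrs11 (0.0809), Nrap to Mlxipl (0.0550), Nebl to C230031I18Rik (0.0566) and Myom2 to B3gntl1 (0.0916).

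Since the summed level of the cardiomyocyte markers was lower in both YAP5SA libraries than in either control library, each gene was also read within a library, as the log2 ratio of its counts to the summed counts of the 9 markers, none of which is among the 9 genes described. On this scale Neb was at -8.50 and -8.85 in control and at -9.15 and -9.19 in YAP5SA. Neb, Nrap, Myom3, Mybpc3 and Cmya5 were lower in both YAP5SA libraries than in both control libraries, an order shown by 3.49% of all tested genes, and Ttn, Nebl, Myom1 and Myom2 overlapped. The marker sum was itself lower in YAP5SA, so this scale raises every gene in YAP5SA against its CPM. The same order was shown by 28.3% of all tested genes in CPM. Related muscle genes were not counted on this scale, so the order is not shown to be particular to these members. The mean difference (YAP5SA minus control) was -1.25 for Myom3, -0.65 for Mybpc3, -0.50 for Neb, -0.26 for Nrap and -0.25 for Cmya5. For Nrap the gap was narrow, with control replicate 1 at -4.94 against -4.96 and -5.01 in YAP5SA. The differences of Ttn (-0.10) and Nebl (-0.05) stayed slightly negative, and those of Myom1 (0.14) and Myom2 (0.05) turned positive.

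**Figure D4:**
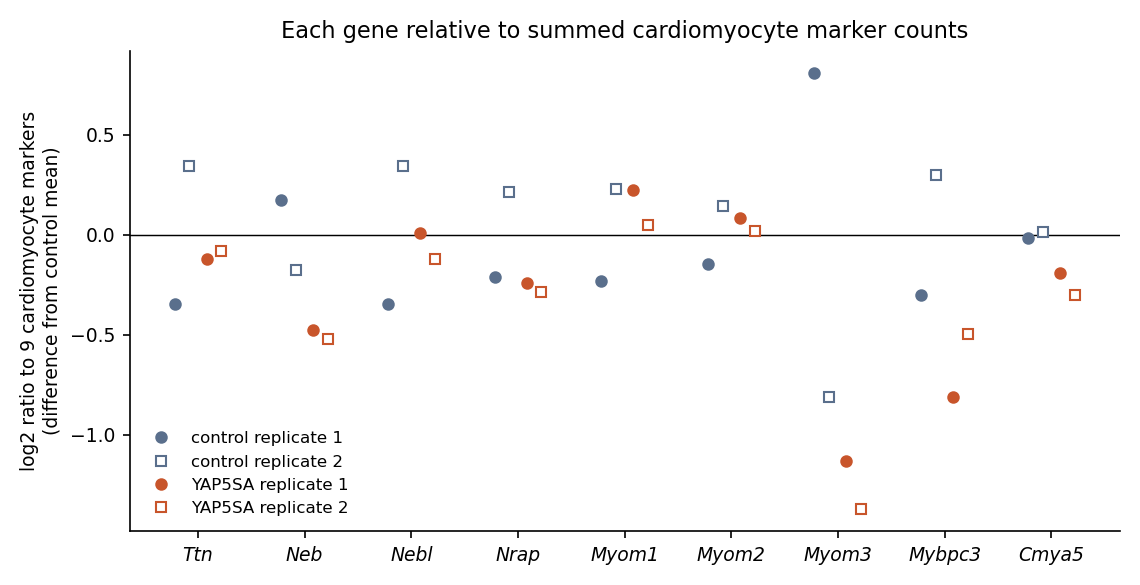
Log2 ratio of each gene's counts to the summed counts of 9 cardiomyocyte markers in the same library, shown as the difference from the gene's control mean. The YAP5SA points lie below both control points for Neb, Nrap, Myom3, Mybpc3 and Cmya5, and fall between the control points for Ttn, Nebl, Myom1 and Myom2.

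Relative to Ttn counts within a library, which needs no scaling between libraries, Mybpc3 was lower in both YAP5SA libraries than in both control libraries, as were 1.99% of all tested genes. Myom1 was higher in both, as were 59.5% of all tested genes, and the other members overlapped. The log2 ratio of Mybpc3 to Ttn was -4.18 and -4.27 in control and -4.92 and -4.64 in YAP5SA. That of Myom1 to Ttn was -4.93 and -5.17 in control and -4.71 and -4.92 in YAP5SA, with control replicate 1 next to YAP5SA replicate 2. Nebl kept nearly the same ratio, at -7.12 and -7.12 in control and -6.99 and -7.15 in YAP5SA.

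Some genes on lists of related sarcomere genes were called lower. For all these lists, the shares of all tested genes with edgeR were 0.999% lower and 3.12% higher. With DESeq2 they were 1.73% lower and 3.50% higher. Of 17 tested genes listed as partners of titin and the M-band, 0 rose and 2 fell (median log2 fold change -0.73). They were the myosin chaperone gene Unc45b (-1.26, edgeR adjusted p = 0.0323) and Trim54 (-1.20, adjusted p = 0.0465), which encodes a ubiquitin ligase of the MuRF family. Trim54 lost its call with the replicate block (adjusted p = 0.0596), and both Unc45b and Trim54 share exon bases with models on the other strand.

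At the Z-disc, where titin and the nebulin family are anchored, 3 of 14 tested genes fell and 0 rose (median -0.88). Tcap, the titin cap gene, was at 71.6 and 99.1 CPM in control and 29.0 and 29.2 CPM in YAP5SA (edgeR adjusted p = 0.0321). Myot, the myotilin gene, had a log2 fold change of -3.45 (adjusted p = 0.0387) and lost its call with limma-voom (adjusted p = 0.0595). Des, the desmin gene and the third call, was at 2298 and 2640 CPM in control and at 743 and 736 CPM in YAP5SA (adjusted p = 0.0394), and lost it with the replicate block (adjusted p = 0.0955). Des shares 220 exon bases with a model on the other strand.

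On the thin filament, 2 of 15 tested genes fell and 0 rose (median -0.83). They were Acta1, the skeletal actin gene (edgeR adjusted p = 0.00930), and Klhl40, whose product stabilises nebulin and leiomodin, at 54.6 and 69.6 CPM in control and 10.1 and 11.9 CPM in YAP5SA (log2 fold change -2.50, SE 0.215, adjusted p = 0.0172). Klhl40 shares 540 bases of exon with a model on the other strand. On the thick filament, 1 of 8 rose and 0 fell (median -1.10, and -0.05 without control replicate 2), while DESeq2 called 3 lower. The gene that rose was Myl4, the atrial light chain gene, from 6.59 and 6.06 CPM to 21.3 and 27.4 CPM (adjusted p = 0.0284). Of 6 partners of myospryn, Fsd2, a gene related to Cmya5 in sequence, fell from 84.1 and 127 CPM to 35.8 and 41.5 CPM (adjusted p = 0.0454), and 0 rose.

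Without YAP5SA replicate 2, the calls in these 5 lists (partners of titin, Z-disc, thin filament, thick filament and myospryn partners) were 0, and without YAP5SA replicate 1 only Acta1 was called. Without control replicate 1, when 17.4% of all tested genes were called lower and 18.8% higher, the lower calls were 13 partners of titin, 12 Z-disc, 12 thin filament and 6 thick filament genes and 2 partners of myospryn, and the higher calls 0, 1, 0, 1 and 1. Without control replicate 2 (18.6% lower and 19.7% higher over all genes), the lower calls in the same order were 6, 8, 5, 3 and 2 and the higher calls 4, 1, 2, 2 and 2. In that fit the median log2 fold change was -0.28 for the partners of titin, -0.41 at the Z-disc and -0.32 on the thin filament.

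Of the known regulators listed, 0 passed with edgeR and 1 with DESeq2. Of 4 splicing factors that act on titin transcripts, 0 passed with edgeR or DESeq2. At an unadjusted p under 0.05, 1 was higher and 1 lower, beside 12.7% and 10.9% of all tested genes. Rbm20, the main splicing regulator of titin, was at 227 and 546 CPM in control and at 369.8 and 321 CPM in YAP5SA, and was chosen after its values were seen. The smallest adjusted p was that of Rbm24 (log2 fold change -0.56, edgeR adjusted p = 0.145). Of 12 tested cardiac transcription factors, 0 passed with edgeR and 1 was higher with DESeq2 (3.50% of all genes with a count). At an unadjusted p under 0.05, 2 were higher, beside 12.7% of all tested genes. Their median log2 fold change was 0.02. The DESeq2 call was Tead1 (log2 fold change 0.73, DESeq2 adjusted p = 0.0332). With edgeR the smallest adjusted p was that of Mkl1, an SRF co-activator gene (log2 fold change 0.66, edgeR adjusted p = 0.0930). Without control replicate 1 and 2 in turn, the median log2 fold change was -0.67 and 0.43 for the splicing factors. For the transcription factors it was -0.03 and 0.28.

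Markers of cells were read beside these values. Over all tested genes, edgeR called 0.999% lower and 3.12% higher. Of the 9 cardiomyocyte markers 0 passed with edgeR and 4 were lower with DESeq2 or at an unadjusted p under 0.05 (1.73% and 10.9% of all genes). Their log2 fold changes ran from -1.38 for Myh6 to -0.24 for Tnnt2. Levels of Actc1, Pln, Nppa and Atp2a2 overlapped between the groups. All 9 markers were negative, with a median of -1.10, beside -1.12 for the genes described. Without control replicate 2 these medians were -0.13 and -0.57. Without control replicate 1, 8 of these markers were called lower, and without control replicate 2, 4 lower and 1 higher, beside the shares of all genes given above. Of 12 macrophage markers 6 rose and 0 fell, and their summed level went from 851 and 614 CPM in control to 1505 and 1808 CPM in YAP5SA. DESeq2 called 11 of them higher, and 3.50% of all genes with a count. The 10 endothelial markers had 2 lower and 0 higher calls (Vwf and Robo4), with sums of 2024 and 1303 CPM in control and 1006 and 931 CPM in YAP5SA. Leaving out YAP5SA replicate 1 or 2 brought the macrophage and the endothelial calls to 0, while without control replicate 1 and 2 in turn 12 and 11 macrophage markers were called higher and 8 and 10 endothelial markers lower. With the replicate block, 5 macrophage markers and 0 endothelial markers were called (Vwf adjusted p = 0.0616, Robo4 0.0588). Fibroblast marker sums overlapped between the groups, from 6612 to 8143 CPM in control and from 6287 to 7853 CPM in YAP5SA, and 1 of 9 rose (Lum, whose adjusted p was 0.0573 with the replicate block). Sums of the 8 smooth muscle and pericyte markers were 1429 and 1257 CPM in control and 1433 and 1601 CPM in YAP5SA, where 1 rose (Acta2, also a gene of cardiac stress and of fibroblasts). Of 9 immediate early and heat shock genes, Fos rose and Hspa1a and Hspa1b, near-identical copies that can share reads, fell. In control replicates 1 and 2 in turn, Atf3 was at 17.1 and 174 CPM, Jun at 82.0 and 256 CPM and Egr1 at 68.7 and 168 CPM. Fosb, Hspa1a and Hspa1b were instead higher in control replicate 1. The part of these cell types and of handling in the values of the 9 genes was not tested.

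**Figure D5:**
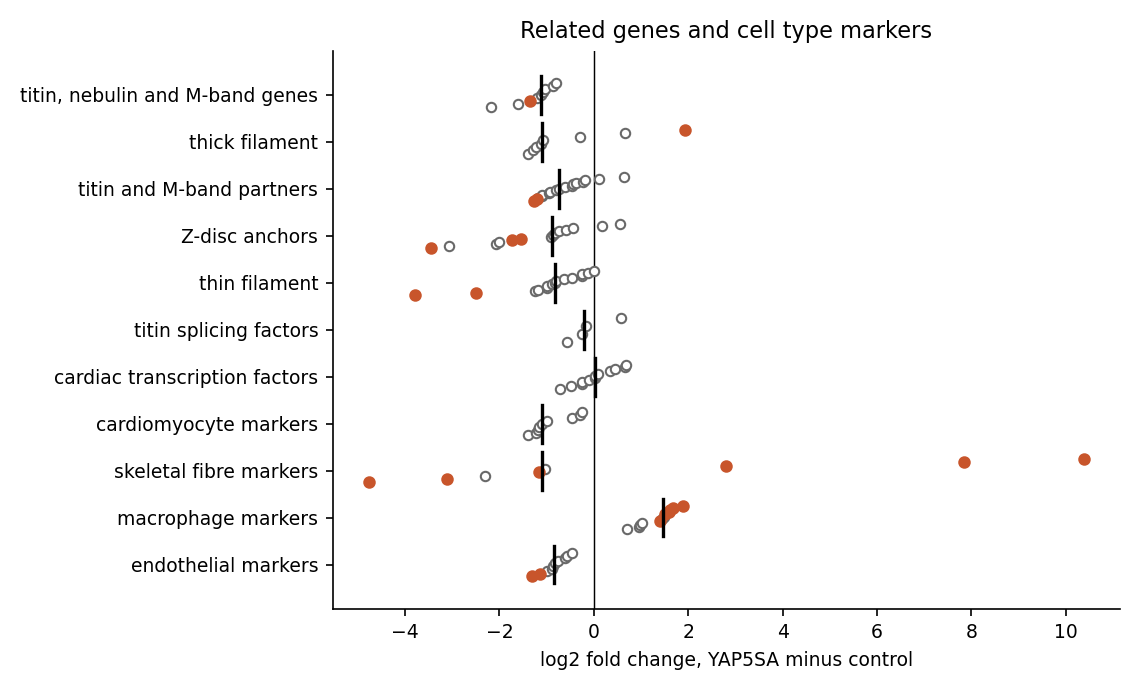
Log2 fold change of the 9 genes and of the tested genes on related lists, with filled points past the edgeR threshold and vertical bars at the median. The 9 genes and the 9 cardiomyocyte markers have medians of -1.12 and -1.10, while the macrophage markers have a median of 1.46.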

How the data were processed

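The deposited table lists unnormalized counts of 4 libraries by gene symbol. STAR mapped the reads to mm10, per the labels' protocols. DESeq2 is also named, per the submitters' processing notes. The counting program, strand setting, annotation and tool versions are not stated there, so antisense overlaps and intronic reads could not be separated.

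Counts were filtered with filterByExpr (minimum count 10), scaled by TMM and tested by quasi-likelihood in edgeR 4.0.16 (with R 4.3.3 and limma 3.58.1) on 2 against 2 libraries with no replicate block. Adjusted p-values from edgeR are Benjamini-Hochberg values over all 17715 tested genes, with a threshold of 0.05. SE is |log2 fold change| over the root of the F statistic. Alternatives were DESeq2 1.42.0 on all 30546 genes with a count (its own independent filtering, so that its printed p-values are adjusted over another set) and, added after seeing the data, on the 17715 filtered genes, limma-voom, 2 other scalings, 2 other filters, totals without the 9 genes, a replicate block, and each library left out with the filter applied again.

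Gene models were taken from GENCODE M21, where each of the 9 symbols matched 1 gene, and upstream sequences from RefSeq. The genes and lists were chosen with earlier results of these data known. The text names the 9 genes, genes of nearest profile, and from each list up to the 2 smallest adjusted p called in each direction or otherwise the smallest. The marker ratio and other genes named were chosen after values were seen. The nearest profiles of Ttn are not reported here.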

Additional observations from a re-analysis of the deposited data

How the results depend on the processing

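The log2 fold changes of all 9 genes stayed negative in all 13 alternatives, except that Myom3 was removed by the stricter filter (at least 50 counts in at least 2 libraries) and has 12. In no alternative was a member called higher. The number called lower was 1 with library totals, RLE size factors, limma-voom, the stricter filter, totals without the 9 genes and the replicate block, 5 with DESeq2 on all 30546 genes with a count or on the 17715 filtered genes (added after the data were seen), and 9 with no filter on low counts. With each library left out it ran from 0 to 9. Over all genes, 553 were called higher and 177 lower. These were 1069 and 527 with DESeq2 on all genes with a count, 1035 and 595 with DESeq2 on the filtered genes, and 1727 and 1689 with no filter. With each library left out they ran from 27 to 3748 higher and from 0 to 3554 lower, and in such a fit the lone library of a group is assumed to vary like the other group. With 0 lower calls (without YAP5SA replicate 2), 1514 genes had an unadjusted p under 0.05. The cause of these moves was not tested.

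The labels give both groups replicates 1 and 2 but no shared origin. Deviations of same-numbered libraries from their group means had a correlation of -0.0917 across 17715 genes, which are not independent replicates. With the replicate block, 321 genes were called higher and 112 lower, and Neb kept its call (adjusted p = 0.0469).

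ATAC-seq and 4C-seq samples were not analysed here. Myom3, with 22 to 120 counts a library, is the gene that depth limits most.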
